A study of Homo sapiens with 4 samples.

Results

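The wide H3K27Ac peaks of chromosome 8 in control MOLM13 cells were examined, and how much of them still held H3K27Ac peaks following treatment with SNDX-50469. The members were selected on the width of the peak in the control list, as control peaks of chromosome 8 that are at least 2000 bp wide and lie outside a window of 2.5 Mb, from 127.5 to 130 Mb. They number 2323 of the 245875 peaks of the control list and of its 25752 peaks on chromosome 8, and a further 111 wide peaks in the window were left out. The widths below are therefore a description. The width rule did not use the overlap with the SNDX-50469 list, but the members were chosen with earlier results of these data known. The overlap, and the place of chromosome 8 among the autosomes, are therefore descriptions as well.

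MOLM13 is an established line of human acute myeloid leukaemia (AML) that carries MLL1-r, a rearrangement of the gene for the methyltransferase MLL1, and SNDX-50469 is a Menin inhibitor, which blocks the binding of Menin to MLL1 and to its fusion proteins. H3K27Ac was profiled in crosslinked cells by ChIPmentation, a form of ChIP-Seq whose sequencing adapters are inserted by the Tn5 transposase. There was 1 library of control cells, whose label gives no treatment while the treatment description names DMSO, and 1 library of cells exposed to SNDX-50469 at 500 nM over 16 h. The authors deposited 1 list of broad peaks for each library, in GRCh38 coordinates. Whether their input libraries were used in calling the peaks is not stated, and these libraries were not used here. With 1 library per condition there is no replicate check and no p-value, and all intervals below are 95% intervals that cover counting error only, while neighbouring peaks are not independent of each other.

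H3K27Ac is placed by acetyltransferases such as p300 and CBP on nucleosomes that flank active promoters and enhancers, and it is removed by histone deacetylases and by exchange of the histone. Most promoters and enhancers give narrow peaks, whereas wide blocks of H3K27Ac form where several active elements lie next to each other, and in leukaemia cells such blocks often cover genes for lineage factors and signalling proteins. MLL1 fusion proteins bind the body and promoter of their target genes together with Menin.

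The labelled cell type was checked on marker genes of all chromosomes. At the 5′ end, within 2.5 kb, 10 of 10 myeloid leukaemia markers (among them SPI1, FLT3, MPO and HOXA9) had a control peak, and at 9 of them the peak was at least 2000 bp wide. Of 13 markers of T, B, erythroid, epithelial, liver and neural cells, 4 had a control peak and 1, CD3D, a wide one of 3628 bp. Control peaks at 5′ ends were common. Of 666 protein-coding genes of chromosome 8 outside the window, 489 had a control peak there and 334 (50.2%) a wide one. Peaks of the SNDX-50469 list lay at 6 of the 10 myeloid markers and at 0 of the 13 others. The lists differed in size, with 245875 control peaks covering 224 Mb and 54061 SNDX-50469 peaks covering 29.4 Mb, and they ended at a different −log10 p, the smallest being 2.68 in control and 3.93 following SNDX-50469. The lists give no read totals, so the depth of the libraries is unknown, and the part of these differences in the results was not tested.

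The members had a median width of 3735 bp, with quartiles at 2634.5 and 6363 bp and the widest at 90026 bp, and together covered 13.3 Mb. Their median fold over background, averaged over the peak by the authors, was 3.72, beside 4.02 for the 21544 peaks of the same width range on the other 21 autosomes. The short arm held 616 members and the long arm 1707, the arms being divided at the longest stretch without a control peak, from 43861240 to 46012261. Of the members, 325 (13.99%) lay within 2.5 kb of a protein-coding 5′ end and 1998 lay beyond, whereas 24.7% of the wide peaks of the other autosomes lay within 2.5 kb. Chromosome 8 had 16.0 members per Mb, which was second among the 22 autosomes after chromosome 19. Its control peaks of any width numbered 25752, the most of any autosome. Members were 9.02% of them, a share that ranked 21 among the 22, with the window left out of the members only. Just inside the width limit, 118 members of 2000 to 2099 bp had a median fold of 3.30, and just outside, 117 peaks of 1900 to 1999 bp had a median fold of 3.28.

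A member overlapped by any SNDX-50469 peak, by 1 bp or more, was called kept. Of the 2323 members, 1810 were kept, 77.9% (Wilson 95% interval 76.2 to 79.6), against 8.24% of all control peaks, 44.1% of all wide control peaks and 40.3% of those on the other autosomes. When the other autosomes were weighted to the widths of the members, in 9 width groups, 42.1% of their wide peaks were kept (41.5 to 42.7). The members thus exceeded peaks of the same width elsewhere by 35.8 percentage points, a ratio of 1.85, and the intervals did not overlap. Among the 22 autosomes at these widths chromosome 8 was first, followed by chromosome 19 with 63.3%, chromosome 6 with 50.7%, chromosome 16 with 48.2% and chromosome 13 with 46.5%, and chromosome 21 was last with 32.6%.

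**Figure D1:**
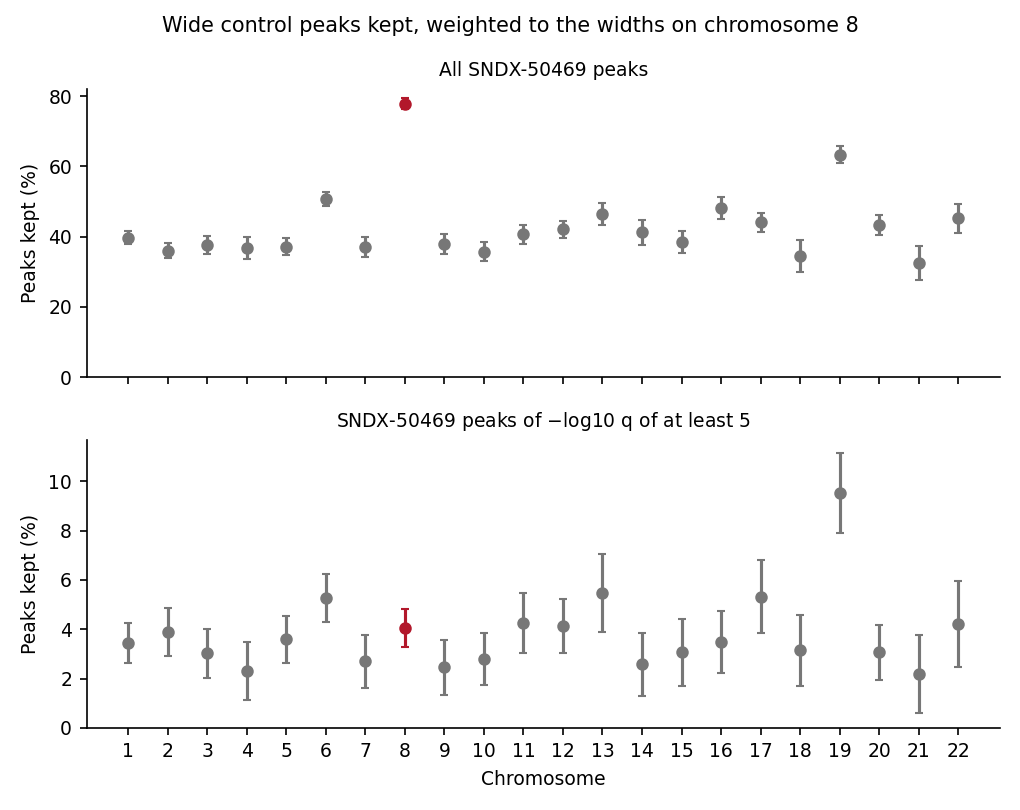
Share of wide control peaks that were kept (%, vertical axes), weighted to the widths of the members, for each autosome (horizontal axis), counted against all SNDX-50469 peaks (top) and against those of −log10 q of at least 5 (bottom), with 95% intervals of counting error as bars. Chromosome 8, in red, is first in the top panel with 77.9% and eighth in the bottom panel with 4.05%.

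The size of this difference changed with the strength asked of the SNDX-50469 peak. With SNDX-50469 peaks of −log10 q of at least 2, 912 members were kept, 39.3% (37.3 to 41.3), beside 25.2% of all wide control peaks and 25.3% of those of the same width on the other autosomes. With −log10 q of at least 5, 94 members were kept, 4.05% (3.32 to 4.93), beside 3.65% of all wide control peaks and 0.407% of all control peaks. At the same widths the other autosomes had 4.01% (3.74 to 4.28) at this level. The difference of 0.0362 percentage points was thus well inside the counting error. This comparison was not weighted by distance from 5′ ends, and fewer members (13.99%) than other wide autosomal peaks (24.7%) lay within 2.5 kb of one. Within 2.5 kb, 18.5% of members and 10.3% of the others were kept at this level, unweighted by width, and the intervals did not overlap. Beyond 2.5 kb the shares were 1.702% and 1.399%, with overlapping intervals. Chromosome 19 came first at this level with 9.54%. Of the 22664 SNDX-50469 peaks of chromosome 8, 4883 shared a position with a member, and these included 310 of the 335 SNDX-50469 peaks of at least 2000 bp on the chromosome and 94 of its 102 peaks of −log10 q of at least 5. A further 4739 shared a position with another control peak, and 13042 with none, of which 0 reached a −log10 q of 5.

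SNDX-50469 peaks were also dense on chromosome 8 where control had no peak. Such positions were covered to 4.05% following SNDX-50469 on chromosome 8 and to 0.110% on the other autosomes, and peaks absent from control numbered 90.0 and 3.85 per Mb, the window left out of the members being included here. The members themselves were covered to 25.3% of their length, 6.26 times the level outside control peaks on the same chromosome. Wide peaks of the other autosomes at the same widths were covered to 15.1%, 137 times the level outside. The part of this higher level outside control peaks in the kept share was not tested. Chromosomes 6 and 19, which followed chromosome 8 in the share of positions outside control peaks that were covered, with 0.457% and 0.374%, also followed it in the kept share, in the reverse order. Further down the 2 orders differed. Chromosomes 13, 20 and 5 ranked 4, 5 and 6 in the share outside, and 5, 8 and 16 in the kept share. Chromosome 16 ranked 9 in the share outside and 4 in the kept share. Copy number was not measured.

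Most kept members were covered in pieces and not along their whole width. Members with 0 SNDX-50469 peaks numbered 513 (22.1%, against 59.7% of wide peaks on the other autosomes), those with 1 numbered 714, those with 2 numbered 474, those with 3 to 5 numbered 445 and those with 6 or more numbered 177 (7.62%, against 1.46%). The SNDX-50469 peaks in members had a median width of 407 bp, beside the median member width of 3735 bp. Over all members the median covered share was 14.1%, and 229 members (9.86%) were covered to at least 50%, beside 6.86% of all wide control peaks and 6.48% of those on the other autosomes.

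The short arm and the long arm differed. On the short arm 392 of 616 members were kept, 63.6% (59.8 to 67.3), and on the long arm 1418 of 1707, 83.1% (81.2 to 84.8). The short arm was lower by 19.4 percentage points (Newcombe 95% interval of the difference −23.7 to −15.3). At the same widths the other autosomes had 41.8% and 42.2%, so both arms were above them, by 21.9 and 40.9 percentage points. In covered length the short arm was close to the other autosomes, with 16.4% against 14.2%, while the long arm had 28.4% against 15.4%. Positions without a control peak followed the same order, being covered to 1.54% on the short arm and 5.32% on the long arm, with 42.6 and 113 peaks absent from control per Mb. At −log10 q of at least 5 the short arm kept 16 members, 2.60% (1.61 to 4.18), against 3.81% at the same widths, and the long arm kept 78, 4.57% (3.68 to 5.67), against 4.08%, each within counting error.

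Along the chromosome in steps of 10 Mb, the kept share was between 59.8% and 62.3% in the first 30 Mb, 70.3% from 30 to 40 Mb, 73.6% from 40 to 50 Mb, and between 75.8% and 89.7% in every later step. At the same widths the other autosomes were between 39.0% and 45.8% for each of these steps. Peaks absent from control numbered between 30.5 and 55.3 per Mb in the first 50 Mb and between 68.1 and 130 per Mb beyond. They were thus denser in the part where the kept share was higher, but within each part the steps did not follow the same order. The highest kept share, 89.7%, was from 140 to 150 Mb, where peaks absent from control numbered 68.1 per Mb, the lowest beyond 50 Mb, but covered 5.93% of the positions without a control peak, the fourth highest of all steps, and where 30.3% of the members lay within 2.5 kb of a 5′ end.

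Members at promoters were kept more often than members away from them. Within 2.5 kb of a protein-coding 5′ end 301 of 325 were kept, 92.6% (89.2 to 94.99), and beyond 1509 of 1998, 75.5% (73.6 to 77.4), a difference of 17.1 percentage points (13.3 to 20.1). On the other autosomes this difference was larger, 41.0 percentage points (39.5 to 42.4), with 71.1% kept near 5′ ends and 30.2% beyond. Weighted to the widths of the members near and beyond 5′ ends, the other autosomes had 74.6% and 31.6%. Chromosome 8 stood 18.0 percentage points above these weighted shares near 5′ ends and 43.9 beyond them. Near 5′ ends there was less room for an excess, as the other autosomes already had 74.6%. In covered length the order was the reverse. Near 5′ ends 41.5% was covered against 27.8% at the same widths, an excess of 13.7 percentage points. Beyond them it was 22.2% against 10.7%, an excess of 11.4. The 245 members that lay across a 5′ end were kept in 96.3%, and 58 of them shared a position with a SNDX-50469 peak of −log10 q of at least 5. Of the 94 members with such a peak, 60 were within 2.5 kb of a 5′ end. Members near 5′ ends were also wider and stronger in control, with medians of 4634 bp and 5.58 fold, beside 3615 bp and 3.60 beyond. The near minus beyond difference was 13.3 percentage points at equal widths, and 2.50 among members of control −log10 q of at least 5. It was 32.7 with SNDX-50469 peaks of −log10 q of at least 2. No value was computed at equal fold, and the part of fold in this difference was not tested.

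In the kept share both divisions held within each other. Near 5′ ends the short arm kept 92 of 109 members, 84.4%, and the long arm 209 of 216, 96.8%. Beyond 2.5 kb the short arm kept 300 of 507, 59.2%, and the long arm 1209 of 1491, 81.1%. The arms differed by −12.4 percentage points near 5′ ends (−20.5 to −5.84) and by −21.9 beyond (−26.6 to −17.2). At −log10 q of at least 5 the short arm kept 7.34% near 5′ ends (3.77 to 13.8) and the long arm 24.1% (18.9 to 30.2). Beyond 2.5 kb the arms were alike at this level, with 1.58% (0.802 to 3.08) and 1.74% (1.19 to 2.54). The median share of a member covered following SNDX-50469 was 24.0% and 44.4% near 5′ ends on the short and the long arm, and 4.09% and 15.3% beyond.

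**Figure D2:**
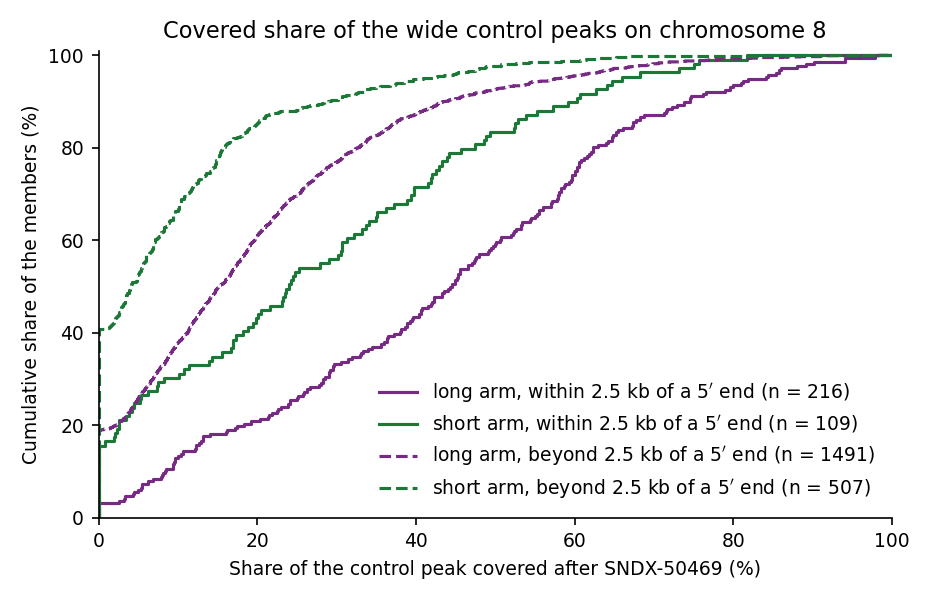
Cumulative share of the members (%, vertical axis) against the share of the member covered by SNDX-50469 peaks (%, horizontal axis), 1 line for each arm and distance from a protein-coding 5′ end. The height at which a line leaves 0% covered is the share not kept. The medians are 24.0% and 4.09% on the short arm and 44.4% and 15.3% on the long arm, near and beyond 2.5 kb.

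Other features of position went with smaller differences. Members in the body of a protein-coding gene numbered 1437 (61.9%) and were kept in 79.3%, and the 886 outside genes in 75.6%. Among members beyond 2.5 kb of a 5′ end the shares were 75.6% in genes and 75.4% outside. The kept share was 77.0% for the 447 members from 2.5 to 20 kb, 74.3% for the 881 from 20 to 100 kb and 76.1% for the 670 farther than 100 kb, with overlapping intervals. The 348 members with no other member within 12.5 kb were kept in 69.8% (64.8 to 74.4), and the 1975 with one in 79.3% (77.5 to 81.1).

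Width and kept share went together, and the median control fold also went with width, from 3.33 in the narrowest group of members to 7.97 in the widest. The part of fold and of the number of positions in this relation was not tested. From 2 to 2.83 kb 60.5% of the members were kept, from 2.83 to 4 kb 70.3%, from 4 to 5.66 kb 87.7% and from 5.66 to 8 kb 93.7%. On the other autosomes these 4 width groups had 23.9%, 33.6%, 41.4% and 52.4%, all below the intervals of chromosome 8. From 8 kb upwards 416 members were kept and 5 were not, and from 16 kb upwards every member was kept. At 32 kb or more the other autosomes also kept all of 75 peaks, beside 19 of 19 members. In covered length these widest groups still differed, with 44.3% of the members and 32.7% of the peaks on the other autosomes covered.

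**Figure D3:**
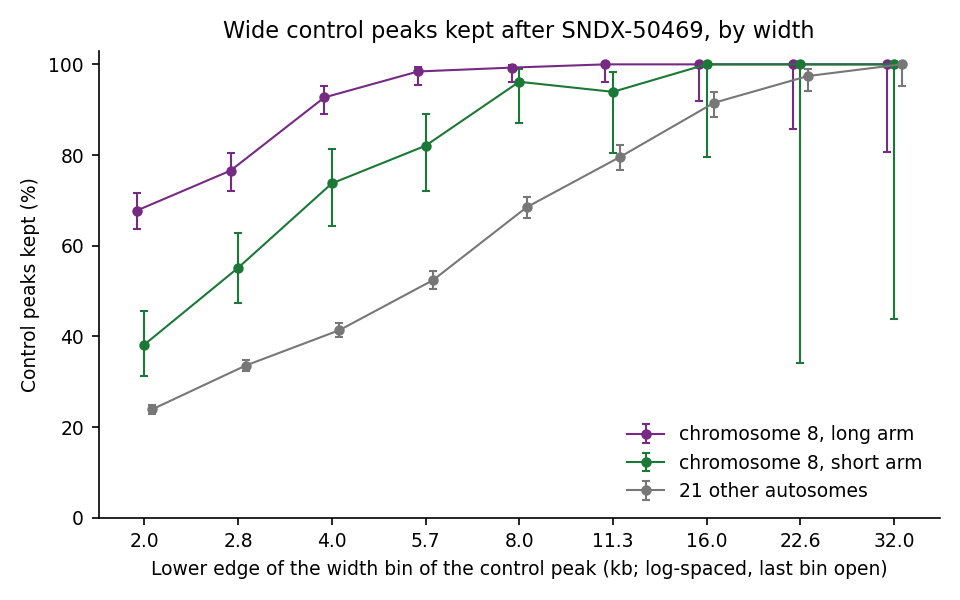
Share of control peaks kept (%, vertical axis) in groups of control peak width (kb, horizontal log axis) for members on the short arm, members on the long arm and wide peaks of the other autosomes, with Wilson 95% intervals as bars. In the narrowest group the shares are 38.2%, 67.8% and 23.9%, and they meet near 100% in the widest groups.

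The excess in kept share over the other autosomes was larger at low than at high control fold, where both neared 100%. In covered length the excess was 11.97 percentage points among the 559 members of control −log10 q of at least 5, beside 10.3 among all members. All wide autosomal control peaks were put in 5 groups of equal size by fold, and in the lowest, with fold from 2.67 to 3.36, 395 of 630 members were kept, 62.7% (58.9 to 66.4), against 8.73% of peaks of the same width elsewhere. In the next 3 groups the members had 73.6%, 76.7% and 88.9% and the other autosomes 14.8%, 28.8% and 60.0%. In the highest group, with fold of at least 5.48, 408 of 413 members were kept, 98.8% (97.2 to 99.5), against 91.7%. SNDX-50469 peaks of −log10 q of at least 5 were shared by 0 members in each of the 3 lowest groups, by 6 in the fourth and by 88 in the highest, where 21.3% of the members and 16.8% of the other autosomes' peaks had one. Members that were not kept were narrower and weaker, at medians of 2686 bp in width and 3.38 in fold, than kept members, at 4389 bp and 3.92.

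**Figure D4:**
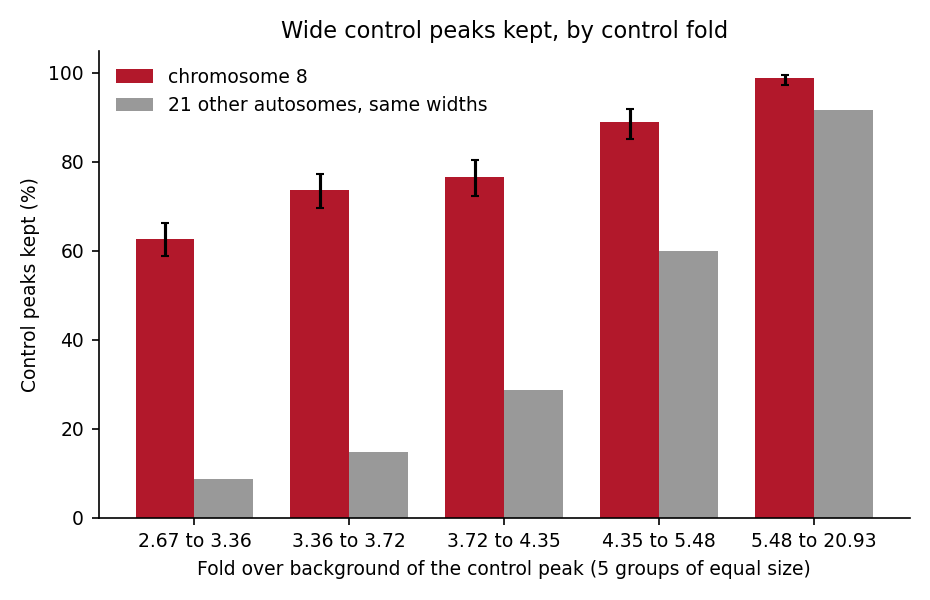
Share of wide control peaks kept (%, vertical axis) in 5 groups of control fold over background (horizontal axis), for members (red bars, with Wilson 95% intervals) and for peaks of the same width on the other autosomes (grey bars). The bars stand at 62.7% against 8.73% in the lowest group and 73.6% against 14.8% in the next, and they are nearest to each other in the highest, at 98.8% against 91.7%.

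Within the members the SNDX-50469 peaks lay towards the centre. When each member was cut in 3 equal lengths, 23.5% of the left, 29.2% of the middle and 23.3% of the right length was covered, against 11.4%, 18.6% and 11.2% on the other autosomes. Covered positions at the centre were 25.8% on the long arm, 14.8% on the short arm and 15.2% on the other autosomes at the same widths. At 9.5 to 10 kb from the centre 17.9%, 7.99% and 4.24% were covered, so the long arm lay above the other autosomes at each distance while the short arm met them at the centre and lay above them in the flanks. At that distance other control peaks covered 57.4% of the positions around the members.

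**Figure D5:**
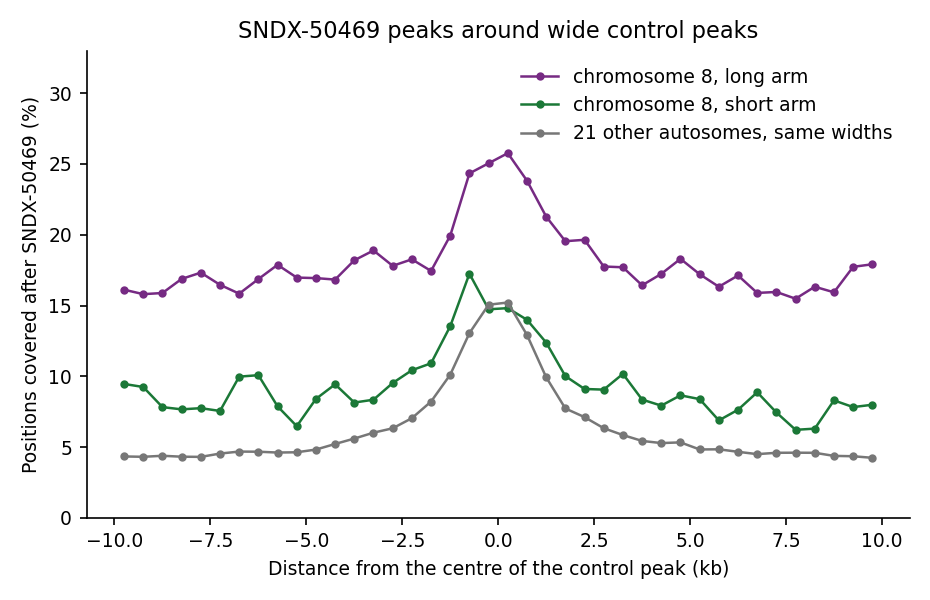
Share of positions covered by SNDX-50469 peaks (%, vertical axis) against the distance from the centre of the control peak (kb, horizontal axis, steps of 500 bp), for members on the long arm, members on the short arm and the other autosomes weighted to the same widths. The long arm is at 25.8% at the centre and 17.9% at the right edge, the short arm at 14.8% and 7.99%, and the other autosomes at 15.2% and 4.24%.

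Each of the 8 widest members was kept, in 17 to 32 pieces. The widest of all lay on the short arm in PTK2B, the gene of a cytosolic tyrosine kinase related to focal adhesion kinase, on chromosome 8 from 27319727 to 27409752. This member was 90026 bp wide with a fold of 8.75, and it held 32 SNDX-50469 peaks that together covered 16830 bp, 18.7% of it, the lowest share among the 8. The next lay in CPQ, which encodes a carboxypeptidase, from 96854604 to 96937632, with a fold of 7.62 and 32 SNDX-50469 peaks over 34.2% of its 83029 bp. From 96601711 to 96667232, a member of 65522 bp over SDC2, the gene of the heparan sulfate proteoglycan syndecan-2, and the start of CPQ had a fold of 7.97 and was covered to 39.3%.

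A further 4 of the 8 were covered to a larger share. The member over SLA, which encodes a Src-like adaptor of lymphocyte receptor signalling, spanned 65889 bp from 133042057 to 133107945, inside the much longer thyroglobulin gene TG, with a fold of 10.7 and 27 SNDX-50469 peaks over 42.3%. PAG1, a membrane adaptor that recruits the kinase CSK, had a member of 51685 bp across its 5′ end from 81082304 to 81133988, with a fold of 7.89 and 58.6% covered. The member of 49206 bp in CCN4 and NDRG1, genes of a secreted matrix protein and of a stress-responsive protein, lay from 133214443 to 133263648, with a fold of 10.9 and 63.5% covered. SLC45A4, a solute carrier gene, had a member of 49016 bp from 141203293 to 141252308 with a fold of 10.9 and 72.0% covered.

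The longest covered length was in a member that overlaps no protein-coding gene. It spanned 58962 bp from 142008546 to 142067507, 339522 bp from the nearest 5′ end, that of TSNARE1, with a fold of 13.3, and 19 SNDX-50469 peaks, the strongest of them 19989 bp wide, took up 40205 bp (68.2%). DENND3, which encodes an activator of the GTPase RAB12, had a narrower member of 37966 bp across its 5′ end, from 141107828 to 141145793, with the highest fold of any member, 14.2. It was covered to 80.9% by 10 SNDX-50469 peaks, the highest share among the members with the longest covered length.

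Several of these regions stood in the largest groups of neighbouring members. Members within 12.5 kb of each other formed 733 groups, and the largest, from 101685662 to 102243058 over NCALD and RRM2B, held 51 members of which 49 were kept. The group from 132963075 to 133582418 over TG, SLA, CCN4, NDRG1 and ST3GAL1 held 49, with 46 kept, and that from 96486929 to 97009995 over SDC2 and CPQ held 44, with 37 kept. From 141073573 to 141429560, over DENND3, SLC45A4, GPR20 and PTP4A3, 26 of 26 members were kept and 51.3% of their length was covered, the highest among the 5 largest groups. The groups named here all lay on the long arm, where 83.1% of all members were kept and 28.4% of their length was covered.

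The widest members that were not kept were far narrower and lay mostly on the short arm, 4 of the 5. They were a member of 12710 bp from 20865381 to 20878090, 561418 bp from LZTS1, a member of 11356 bp inside NRG1, the gene of an ERBB receptor ligand, from 32482301 to 32493656, a member of 9634 bp from 29610744 to 29620377 whose nearest 5′ end is that of DUSP4, a MAP kinase phosphatase gene, and a member of 8220 bp in XKR6 from 11000805 to 11009024. On the long arm it was a member of 8055 bp from 49288398 to 49296452, 234062 bp from PPDPFL. All 5 lay beyond 2.5 kb of a 5′ end, and their folds were between 3.76 and 4.67.

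Of the 5 members with the strongest SNDX-50469 peaks, 3 lay at a protein-coding 5′ end. The highest −log10 q, 16.9, was at ERLIN2, which encodes a protein of the endoplasmic reticulum, in a member of 8395 bp from 37733545 to 37741939. The member at the shared promoter of COPS5, the catalytic subunit of the COP9 signalosome, and CSPP1, a centrosome protein gene, from 67058834 to 67066683, had 15.3, and that at RPL7, a ribosomal protein gene, from 73291724 to 73296397, had 12.8. A member of 22893 bp from 56553798 to 56576690 over the long non-coding RNA gene LINC00968 reached 13.7, and a member of 20046 bp in ARHGEF10, from 1935324 to 1955369, reached 12.7. The widest short-arm member near a 5′ end, 23399 bp at CNOT7 and VPS37A from 17245344 to 17268742, had a strongest SNDX-50469 peak of −log10 q 3.75 and was covered to 39.8%.

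Counted by gene, 334 of the 666 protein-coding genes of chromosome 8 outside the window had a member within 2.5 kb of the 5′ end. A member was kept at 317 of them, 94.9%, with 97 of 109 on the short arm and 220 of 225 on the long arm. At 74 genes, 22.2%, the widest member shared a position with a SNDX-50469 peak of −log10 q of at least 5, 10 on the short arm and 64 on the long arm. The median covered share of the widest member was 41.5% over all 334 genes, 25.3% on the short arm and 47.6% on the long arm. Divergent neighbours such as MCM4 and PRKDC, or HSF1 and BOP1, share 1 member, so genes are not independent points.

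Among 28 genes of translation, respiration, replication and repair, all had a member at the 5′ end and all were kept. Of all 334 genes with a member, 94.9% were kept, so the list was near the share of the whole chromosome. The median covered share was 58.3%, and 13 of the 28 had a SNDX-50469 peak of −log10 q of at least 5, beside 22.2% of the 334 genes. The widest of their members were at PUF60, a splicing factor gene, with 14607 bp of which 28.2% was covered, RAB2A, a GTPase gene of vesicle transport, with 12646 bp and 34.4%, RRM2B, a ribonucleotide reductase subunit, with 11123 bp and 50.1%, and ELOC, which encodes elongin C, with 10328 bp and 53.2%. The lowest covered share of the list was 17.4%.

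Of 24 genes of chromatin and transcription regulators, 21 had a member and all 21 were kept, beside 94.9% of the 334 genes. Their median covered share was 43.96%. TRPS1 had no control peak at its 5′ end, and CHD7 and TERF1 had control peaks there of which none was wide. The widest members were at PHF20L1, a reader of methylated lysine, with 8896 bp and 4.97% covered, POLR2K, an RNA polymerase subunit, with 7866 bp and 37.2%, and NCOA2, a nuclear receptor coactivator, with 7801 bp and 8.51%. Genes of the list with a SNDX-50469 peak of −log10 q of at least 5 included ASH2L, a core subunit of MLL-type methyltransferase complexes, with 64.1% of its member covered, NSD3, a histone H3 lysine 36 methyltransferase, with 52.9%, and TCEA1, a transcription elongation factor, with 76.6%.

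Of 34 myeloid, lymphoid and signalling genes, 22 had a member and 21 of these were kept, beside 94.9% of the 334 genes. Their median covered share was 39.2%. The exception was SDCBP, the gene of the scaffold protein syntenin, whose member of 2852 bp with a fold of 4.24 shared 0 bp with the SNDX-50469 list. After SLA and PAG1, the widest members were at PTP4A3, a phosphatase gene, with 22525 bp and 38.01% covered, and at NDRG1, with 19768 bp and 40.4%. A SNDX-50469 peak of −log10 q of at least 5 was present at 3 of the 22, beside 22.2% of the 334 genes. These were CEBPD, a C/EBP family transcription factor, where 57.7% of 8031 bp was covered, KLF10, a Krüppel-like factor, where 48.0% of 7751 bp was covered, and PAG1.

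Genes of neural, endocrine and other tissues had no wide peak at the 5′ end. Of 22 such genes, 0 had a member and 5 had any control peak within 2.5 kb, namely CSMD3, HNF4G, GATA4, TG and PNOC. The wide peaks inside TG and NRG1 described above lay away from the 5′ ends of these genes.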

How the data were processed

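H3K27Ac ChIPmentation was analysed in MOLM13 cells, 1 control library and 1 library with SNDX-50469. The submitters' processing notes name Trim Galore 0.6.5, Bowtie2 2.3.4.2, Picard 2.9.0 and MACS2 2.1.2 with GRCh38, whereas the supplementary methods name TopHat2 and hg38. The caller's options and any use of input are not given in the sources used here. The authors deposited for each peak a fold over background (a ratio averaged over the peak), −log10 p and −log10 q, and a score that is 10 times the −log10 q without decimals in all but 9 control and 2 SNDX-50469 peaks. The score was not used. These values are relative to the background of their own list and were not compared between lists peak by peak, so positions were compared. Without read totals in the lists, the depth of each library is unknown.

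Python 3.11.15 with numpy 2.4.6, pandas 2.3.3, scipy 1.17.1 and matplotlib 3.10.9 was used, and the scripts were tested on simulated data. Protein-coding 5′ ends were the outermost ends in the RefSeq GRCh38.p14 annotation, with the strand from GENCODE by gene identifier or symbol (668 of 715 genes of chromosome 8). Distance was taken from the nearest edge of a peak. The other autosomes were weighted to the members' shares in 9 width groups, each wider by a factor of 1.41. Shares have Wilson and differences Newcombe 95% intervals.

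Regions were named by rule: the 8 widest members, the 8 with the longest covered length, the 5 widest not kept, the 5 with the highest SNDX-50469 −log10 q and the widest of each arm and distance. Genes were named from the lists as the 4 with the widest member, plus counts of 5 or fewer, and an item that these rules name is not reported here. The groups of neighbouring members, and the genes given as sharing a member, were named after their values were seen. Members and lists were chosen with earlier results of these data known.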

Additional observations from a re-analysis of the deposited data

How the results depend on the processing

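Of 50 values recomputed under other settings, 19 moved by less than the counting interval reaches to either side and 31 by more. None changed direction, but the kept shares among them are percentages and cannot do so. The excess of 0.0362 percentage points at −log10 q of at least 5 counts as unchanged in direction although it was inside the counting error. With at least 10% of the member covered, the kept share was 58.5%, its excess over the other autosomes 29.8 percentage points, short minus long arm −25.8 and near minus beyond a 5′ end 26.0. With at least 50% covered these were 9.86%, 3.23, −6.79 and 26.8. With SNDX-50469 peaks of −log10 q of at least 2 they were 39.3%, 13.96, −15.2 and 32.7, and the excess in covered length, 10.3 in the report's setting, was 2.47. At 5 the kept share was 4.05%, its excess 0.0362, short minus long arm −1.97 and the excess in length 0.224. Among the 559 members of control −log10 q of at least 5 the values were 97.5%, 11.4, −2.04 and 2.50, and the excess in length was 11.97. With a width of at least 1000 bp they were 60.7%, 34.1, −23.9 and 20.7, and with at least 4000 bp the kept share was 93.6%, short minus long arm −12.5 and near minus beyond 7.82. Weighting also by 5′ distance gave an excess of 40.3, and also by fold 42.0, while near minus beyond at equal widths was 13.3. A stricter limit on either list leaves fewer peaks by construction, and the cause of the other movements was not tested. No paired analysis was possible because there was 1 library for each condition. The unknown depth and the lack of a replicate limit all values.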
